A study of Arabidopsis thaliana with 3 samples.

Results

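The genes sks15 (AT4G37160, chromosome 4) and sks16 (AT2G23630, chromosome 2) of Arabidopsis were examined, both members of the SKU5-similar group. They were found as the probe sets that name them in the platform's gene table, 1 probe set each (246229_at and 267287_at), and make up 2 of 13356 genes named alone by a probe set. Both were chosen with their signals on these arrays already known, so their levels are given as a description and no p-value of either is given. The pair stays in the fit over all genes and in the counts drawn from that fit. RNA came from FACS-sorted GFP-positive protoplasts of Col-0 roots carrying WOX5:GFP, taken 5 days after stratification, with no further treatment. The 3 QC samples were hybridised to 1 ATH1 array each and form the only group, so nothing could be set against another cell type. GFP under the WOX5 promoter marks the quiescent center (QC), the rarely dividing cells at the centre of the root stem cell niche, and the sorted population is only as pure as that marker and the gate. Nothing in the labels says that the samples came from separate plants, so p-values may hold technical variation only. They rest on the spread between these 3 preparations, shared in part over genes of like signal.

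SKU5 and its relatives form a family of secreted proteins built like multicopper oxidases, the group that also holds laccases and ascorbate oxidases. SKU5 itself is a glycoprotein of the plasma membrane and cell wall, and roots of the sku5 mutant skew and twist as they grow along agar. The study placed both sks15 and sks16 in its marker list for atrichoblasts, the hairless cells of the root epidermis. Cells were freed by digestion of the wall, and genes known to answer that digestion had been removed by the study before markers were chosen, but an effect of digestion on wall genes cannot be told apart here from the state of the cells.

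The signal of sks15 was 494, 629 and 685 on replicates 1, 2 and 3, in units of MAS5 signal, a linear intensity scaled by the authors to the same trimmed mean on each array. It was lowest on replicate 1 and highest on replicate 3, and the highest value was 1.39 times the lowest. On the log2 scale this was 9.22 ± 0.24 (SD, n = 3). The signal of sks16 was 361, 286 and 468 on the same replicates. It was lowest on replicate 2 and highest on replicate 3, with a highest over lowest ratio of 1.63 and a log2 mean of 8.51 ± 0.35 (SD, n = 3). Both genes therefore had their highest value on replicate 3, but not their lowest value on the same array. In sorted cells, fewer cells that express a gene and less of its RNA per cell cannot be told apart. Because probes differ in how strongly they hybridise, no order of abundance is read between sks15 and sks16.

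For a measure of what the arrays gave without a root transcript, a background level was taken on each array from 6 genes of flowers, pollen and the shoot meristem (ANX1, ANX2, MGH3, A9, AMS and CLV3). It was the 90th percentile of their log2 signal. That level was a signal of 23.6 on replicate 1, 44.9 on replicate 2 and 49.0 on replicate 3. The signal of sks15 was 21.0, 14.0 and 14.0 times the level on replicates 1, 2 and 3, or 4.00 ± 0.34 log2 over background (SD, n = 3). That of sks16 was 15.3, 6.38 and 9.55 times the level, or 3.29 ± 0.63 log2 (SD, n = 3). Both genes thus stood above the level on all 3 arrays. The tapetum regulator AMS was the brightest panel gene on every array, with signals of 48.4, 59.7 and 99.4. With 6 genes the 90th percentile lies midway between the 2 highest log2 values, so the level leans on AMS. Of the 13350 genes tested across the arrays, 6051 were called above background, which is 45.3%, and 3414 below it, which is 25.6% (limma, adjusted p under 0.05). The level itself varied by 1.05 log2 between arrays and was lowest on replicate 1, so the values over background of both genes were highest on replicate 1, although their signals were highest on replicate 3.

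**Figure D1:**
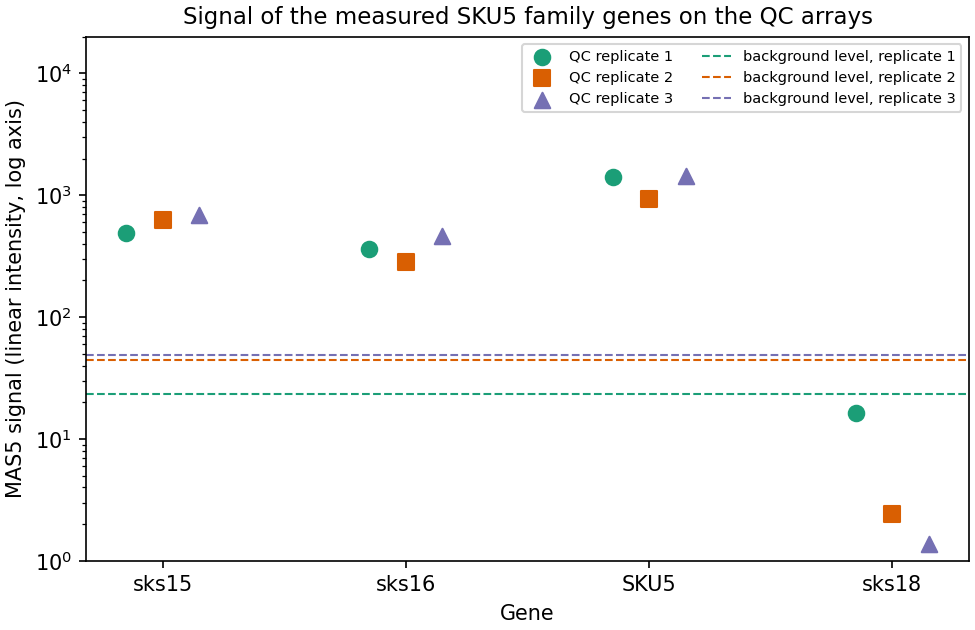
MAS5 signal (log axis) of sks15, sks16, SKU5 and sks18 on each QC array, with 1 symbol per replicate and dashed lines at the background level of each array. Points of sks15 (494 to 685), sks16 (286 to 468) and SKU5 (932 to 1446) lie above all lines, and those of sks18 (1.37 to 16.3) lie below all of them.

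Relatives of the pair were examined next. RefSeq names 19 genes as SKU5 or as sks with a number, and 4 of them were measured by a probe set that names them alone. The other 15 were not analysed here. SKU5, the founding member, gave signals of 1419.7, 932 and 1446 on replicates 1, 2 and 3 and exceeded the level by 5.06 ± 0.78 log2 (SD, n = 3), with an adjusted p of 5.39e-28 in limma. Its signal was lowest on replicate 2, as that of sks16 was. A p this small means only that the gene lay far from the background level compared with the spread that limma assigns to genes of its signal. With no trend of variance with signal, the adjusted p of SKU5 in limma was 3.29e-06. The level of each array was subtracted as a fixed value, without an error of its own. The sole other measured gene named sks with a number was sks18, at signals of 16.3, 2.41 and 1.37, and it was called below background at -3.31 ± 2.45 log2 (SD, n = 3), with an adjusted p of 0.00278 in limma. Its value on replicate 1 was close to the level there and the other 2 values were far under theirs. The range of its log2 signal, with no level subtracted, was 3.58. The size of its distance rested on the log2 of very low signals. With an offset of 16 added to each signal it was -1.36 log2. The call of sks18 ended without replicate 3 (-2.38 log2), where the adjusted p in limma was 0.0663, against 9.18e-05 to 0.0441 under the other alternatives. Signal below the level does not show that sks18 was absent, and the difference between sks18 and the pair was not tested because it would set one probe set against another.

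A constant difference in how well probes bind drops out of log2 changes from array to array, and these were compared among the family. The size of such a change can still depend on the probe set. On replicate 1 the signal of sks15 deviated by -0.27 log2 from its own mean, against -0.01 for sks16 and 0.19 for SKU5. On replicate 2 the deviation was 0.07 for sks15, -0.35 for sks16 and -0.41 for SKU5, and on replicate 3 it was 0.20, 0.36 and 0.22 in the same order. The difference of log2 signal between sks15 and sks16 was 0.45 on replicate 1, 1.14 on replicate 2 and 0.55 on replicate 3, a range of 0.68 log2. The 2 genes thus changed unequally between arrays, chiefly on replicate 2. The difference between sks16 and SKU5 ranged over 0.35 log2 and that between sks15 and SKU5 over 0.96 log2. With 3 arrays of 1 group these values carry no test. On replicate 2, where sks16 and SKU5 were lowest, all 18 probe sets of the hybridisation spike-in controls were higher than on the other arrays. Their median there was 2.13-fold over the mean of the other arrays. Any part of this in the values of sks16 and SKU5 was not tested.

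**Figure D2:**
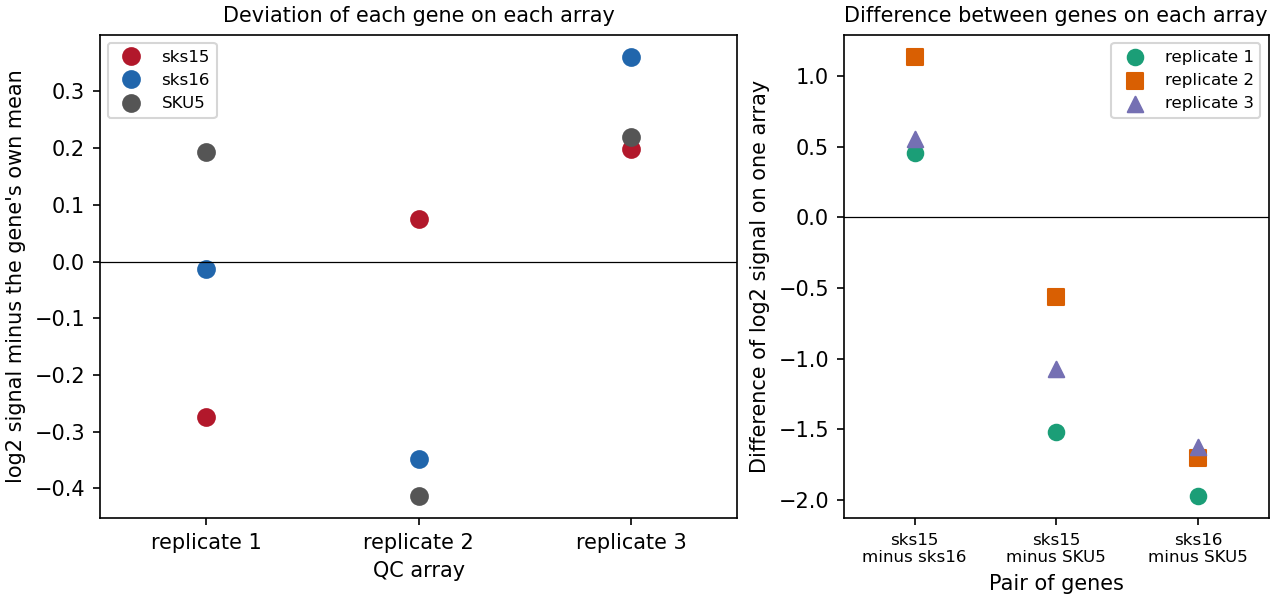
Left, log2 signal of sks15, sks16 and SKU5 on each QC array minus the gene's own mean over the 3 arrays; right, the difference of log2 signal between pairs of these genes on each array. On replicate 2, sks15 stands at 0.07 while sks16 and SKU5 stand at -0.35 and -0.41, and the difference of sks15 minus sks16 reaches 1.14 there.

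The spread of each gene was then set beside that of genes with like signal. The SD of sks15 over the arrays was 0.24 log2, against a median of 0.19 over 992 genes whose mean lay within 0.5 log2 of its own, and 64.9% of those had a smaller SD. For sks16 the SD was 0.35, against a median of 0.22 over 1358 genes, and 83.7% of them had a smaller SD. For SKU5 the SD was 0.36, against a median of 0.16 over 559 genes, and 93.7% of them had a smaller SD. All 3 genes were thus more variable between arrays than the middle of genes with like signal. The SD of sks18 was 1.87, against a median of 1.91 over 1190 genes of similarly low signal.

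**Figure D3:**
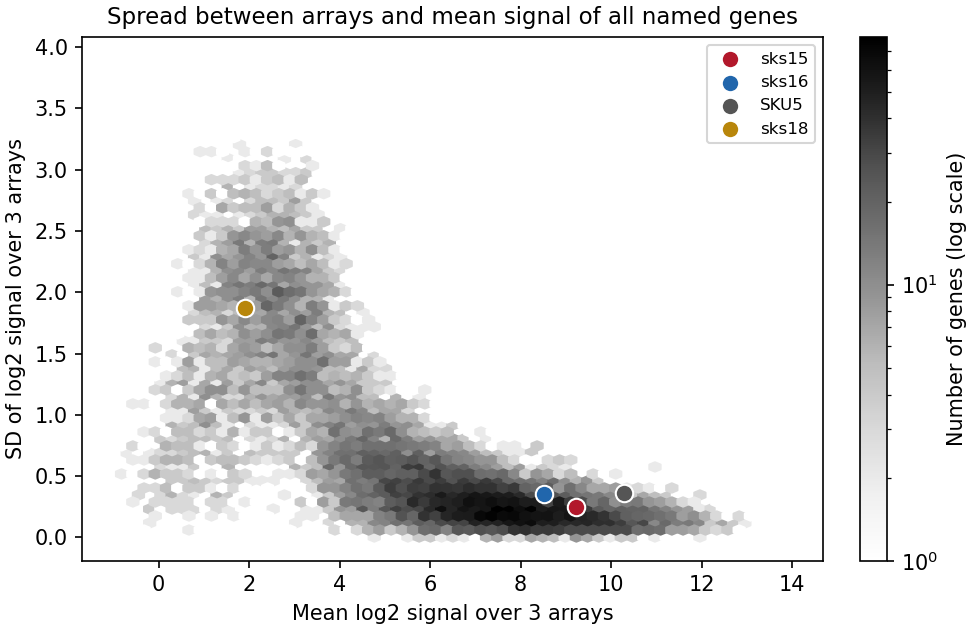
SD of log2 signal over the 3 QC arrays against mean log2 signal, with all 13356 named genes as grey cells (darker for more genes, log scale) and sks15, sks16, SKU5 and sks18 as coloured points. The SD of sks15 (0.24), sks16 (0.35) and SKU5 (0.36) lies within the narrow band that bright genes form, with SKU5 toward its upper edge, and that of sks18 (1.87) lies among the dim genes of wide spread.

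To find genes with a like pattern, the distance between log2 deviations over the 3 arrays was taken from each of the pair to the 6050 other genes above background. The 5 genes nearest to sks15 were AT3G63240, AT4G18593, AT5G51220, AT5G50170 and AT3G03150, at Euclidean distances of 0.0019 to 0.015 log2. The 5 nearest to sks16 were AT3G24190, AT5G05450, AT2G23200, AT1G73400 and AT4G39235, at 0.012 to 0.023 log2. Such nearness is common with 3 arrays, since 158 genes lay within 0.1 log2 of sks15 and 68 within 0.1 log2 of sks16. It also rested on the scaling. After quantile normalization 1 of the 5 genes of sks15 and 0 of the 5 of sks16 were again among the nearest. The distance between sks15 and sks16 was 0.52 log2, and 61.4% of the other genes above background lay nearer to sks15 than sks16 did. From sks16 to SKU5 the distance was 0.26 log2, and 9.17% of genes lay nearer to sks16 than SKU5 did.

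Multicopper oxidases outside the SKU5 family were counted in the same way. Of 22 listed loci 6 were measured, of which 1 lay above background, 1 below and 4 were not called, where 45.3% of all genes tested lay above and 25.6% below, with a median of -0.10 log2 over background, against 0.62 over all genes tested. LPR1 and LPR2, oxidases through which root tips stop growing when phosphate is low, were not called at -0.23 ± 0.99 and 0.29 ± 0.60 log2 (SD, n = 3). Their signals were 9.20, 62.6 and 55.5 for LPR1 and 19.6, 85.3 and 56.4 for LPR2 on replicates 1 to 3, each lowest on replicate 1. LAC16, a laccase gene, was called below background at -3.34 ± 1.55 log2 (SD, n = 3), with an adjusted p of 0.00259 in limma and signals of 1.12, 15.3 and 2.94. With an offset of 16, LAC16 stood at -1.37 log2. Of 3 further loci of the list, AT5G21105 was called above at 1.34 ± 0.45 log2 (SD, n = 3), with an adjusted p of 0.00554 in limma, while AT4G39830 (0.03 ± 0.72) and AT5G21100 (-0.25 ± 0.16) were not called. The call of AT5G21105 ended without replicate 2 (1.49 log2, adjusted p of 0.096 in limma) and without replicate 3 (1.45 log2, 0.0591), and over all alternatives its adjusted p ran from 1.42e-15 to 0.499. Within the SKU5 family 3 of 4 measured genes lay above background, sks15 and sks16 being 2 of the 3 by choice, so nothing is read from that count beside the 45.3% of all genes.

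Markers of the cell types that the gate could hold are given beside these values. Of 8 QC markers 3 were measured and all lay above background. BBM, a PLETHORA-type transcription factor, had signals of 434, 506 and 595 on replicates 1 to 3, JKD, a zinc finger patterning factor, had 111, 88.1 and 138, and the MADS-box gene AGL42 had 62.8, 96.7 and 90.5. BBM and JKD had their highest value on replicate 3, as sks15 and sks16 did, but AGL42 did not. The root hair gene EXPA7 was highest there too (203, 232 and 274), while EXPA18, another root hair gene, was highest on replicate 1 (502, 441 and 413). Over all genes above background 35.4% were highest on replicate 3, so no cell type is read from this. WOX5 was not analysed here. Of 7 markers of hairless epidermis only MYC1, a basic helix-loop-helix factor, was measured, and it was not called at 0.49 ± 0.98 log2 over background (SD, n = 3), with signals of 64.0, 65.8 and 34.2. It was lowest on replicate 3. MYC1 was called above background where bacterial control probe sets (1.49 log2, adjusted p of 0.000269 in limma) or pseudogenes (0.90 log2, 0.0377) set the level. The call of AGL42 ended without replicate 2 (adjusted p of 0.218 in limma), without replicate 3 (0.111), at the 95th percentile of the panel (0.129), with the level raised by 1 log2 (0.801) and with no variance trend (0.0691). That of JKD ended at the raised level (0.57 log2, adjusted p of 0.226 in limma). The protoderm receptor kinase gene ACR4 had signals of 157, 169 and 103 and was also lowest on replicate 3, although called above background at 1.91 ± 0.83 log2. The root hair expansin genes EXPA18 and EXPA7 were called above, with means of 3.59 ± 0.72 and 2.65 ± 0.40 log2 (SD, n = 3), and TRY, which keeps cells from the hairless fate, was not called at -0.05 ± 1.21. None of 8 root cap and columella markers was measured. In all, 6 of 8 measured markers lay above background, against 45.3% of all genes tested. The part of other cell types in the signal of sks15 and sks16 was not tested.

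**Figure D4:**
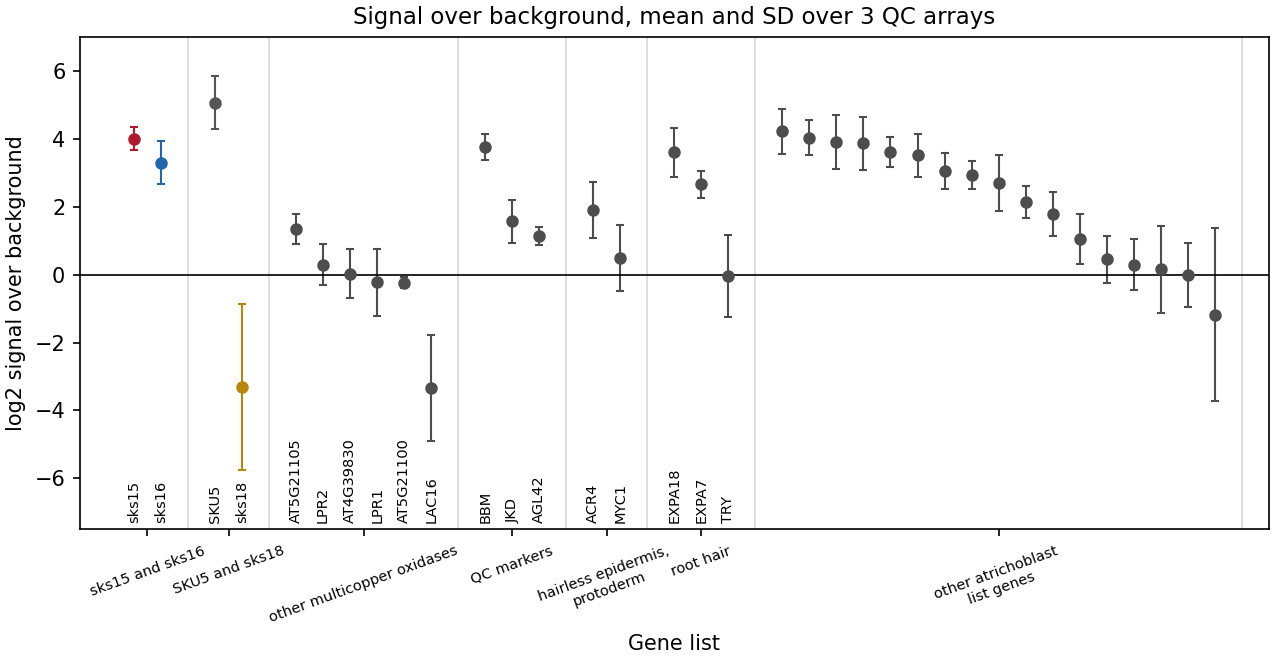
Mean log2 signal over the background level with SD over the 3 QC arrays (bars), for sks15 and sks16, SKU5 and sks18, other multicopper oxidases, cell type markers and the other genes of the study's atrichoblast list. The pair lies at 4.00 and 3.29, and 12 of the 17 other atrichoblast list genes were called above background.

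The atrichoblast list of the study was chosen partly with QC profiles, so it is no independent evidence here. Of its 30 loci 19 were measured, sks15 and sks16 among them. Of the 17 other genes 12 lay above background, 0 below (also 0 at an unadjusted p under 0.05 in limma) and 5 were not called, where 45.3% of all genes tested lay above and 25.6% below. Their median was 2.70 log2 over background, against 0.62 over all genes tested. Most of these 17 genes were not highest on replicate 3, where the pair was. Their median deviation there was -0.08 log2, against 0.20 for sks15 and 0.36 for sks16, and 4 of the 17 were highest on replicate 3. Over all genes above background 35.4% were highest on replicate 3. The difference was not tested, since it would compare 1 array with the others.

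The genes beside the pair in the genome were also looked up. In the RefSeq gene order of TAIR10.1, the 2 protein-coding genes before sks15 were MEE69, also named methyl esterase 20, and MES9, and the 3 before sks16 were ACL, also named as a methyl esterase, MES3 and MES1. Members of this family hydrolyse methyl esters of small molecules, among them methylated plant hormones. This class of gene was singled out because it was seen beside both sks15 and sks16, so its place there is a description only. Of 27562 protein-coding genes, 82 (0.298%) had such a gene within 3 places, and of the 19 genes of the SKU5 family 2 did, sks15 and sks16. At so low a share, the lack of one beside the other family genes says nothing about them. The methyl esterase genes beside sks15 and sks16 had no probe set that names them alone and were not analysed here. On the other side of sks15, 3 genes were measured. The second, AT4G37180, had signals of 450.1, 391 and 359 on replicates 1 to 3, with its highest value on replicate 1, where sks15 was lowest. The nearest, AT4G37170, had 25.7, 13.8 and 7.31, and AT4G37190 had 60.7, 70.4 and 46.9. None of the 3 was highest on replicate 3. No annotated gene overlapped sks15, sks16, sks18 or SKU5.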

How the data were processed

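FACS-sorted WOX5:GFP protoplasts gave 3 QC samples, hybridised to 1 ATH1 array each. The authors deposited 1 linear intensity per probe set, the MAS5 signal, and its mean after leaving out 2% at each end was 250 on every array. The sources used here give neither the MAS5 version nor detection calls. Of 22810 probe sets 13513 named 1 gene, 503 several and 8730 none, and 64 were controls. Names were updated through RefSeq (TAIR10.1), which matched 13436. Log2 signals, with no offset, were averaged over the probe sets of a gene. Median signal was 76.9, 81.4 and 81.3 on replicates 1 to 3, and the number of arrays limits precision. Log2 signal minus the level of its array was tested against 0 with limma 3.58.1 in R 4.3.3. Settings were intercept only, trend, two-sided and Benjamini-Hochberg over 13350 genes, with panel genes left out. A run on simulated data drew errors independently for each gene and array, so it could not cover error of the level. Members, lists and background panel were chosen with earlier results of these data known. The named genes were the family, the other multicopper oxidases, the markers and the 5 nearest in pattern; measured genomic neighbours of sks15 were added by position afterwards. Alternatives were other background levels, quantile normalization, an offset of 16, fewer probe sets, no trend and leaving out each replicate. Protein comparisons were planned and not made, as no sequences were at hand.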

Additional observations from a re-analysis of the deposited data

How the results depend on the processing

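With 3 arrays of 1 group, each value rests on few measurements, and the background level is its weakest part. Under none of the 11 alternatives that could change them did sks15 or sks16 fall to the level or below it. Each distance was compared with its own SD over the arrays, 0.34 log2 for sks15 and 0.63 for sks16. Both moved by more than that with the panel's 75th percentile (4.91 log2 for sks15 and 4.19 for sks16) and without AMS (4.95 and 4.24). They also did so with bacterial control probe sets (5.00 and 4.28) and with the level raised by 1 log2 (3.00 and 2.29). At the 95th percentile (3.59 and 2.88), with pseudogenes (4.41 and 3.70) and with an offset of 16 (3.45 and 2.76), only sks15 passed its SD. A change of the level alone shifts every gene by the same amount, so those moves describe the level chosen and neither gene. With the offset the 2 genes moved by like amounts. The SD of sks16 is the larger. Leaving out 1 replicate gave 3.81 to 4.10 log2 for sks15 and 2.96 to 3.60 for sks16. SKU5 was above background in all 13 alternatives. The family count above was 3 in each, and the count above among the 19 atrichoblast list genes ranged from 12 to 17. Both counts hold sks15 and sks16, which were chosen with their signals known, so nothing is read from how steady they were. Genes above background ranged from 4602 to 7605; those below moved to 1636 at the 75th percentile, 1560 without AMS, 1713 with bacterial controls, 5217 at the raised level, 2269 without replicate 2 and 2226 without replicate 3, against 3414. Of the other multicopper oxidases 3 were above with bacterial controls, 0 at the raised level and 0 to 1 leaving out 1 replicate (limma; at an unadjusted p under 0.05, 0 at the raised level, 0 without replicate 2 and 1 without replicate 3). The cause was not tested.

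Of 208 values of 16 tested genes under alternatives, 22 changed sign and 0 of these passed the threshold. LPR1 turned to 0.67 at the 75th percentile, 0.72 without AMS, 0.77 with bacterial controls and 0.18 with pseudogenes, and ranged from -0.59 to 0.33 leaving out 1 replicate. AT5G21100 turned to 0.66, 0.71, 0.75 and 0.16 under the first 4 of these, and TRY to 0.85, 0.90, 0.94 and 0.36, and ranged from -0.51 to 0.63 leaving out 1 replicate. With the level raised, LPR2 turned to -0.71, AT4G39830 to -0.97 and MYC1 to -0.51. LPR2 was -0.12 and AT4G39830 -0.38 at the 95th percentile, and AT4G39830 was -0.049 with the offset. Leaving out 1 replicate gave -0.030 to 0.57 for LPR2 and -0.38 to 0.25 for AT4G39830. No paired analysis was possible because there is only 1 group.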
